A study of Drosophila melanogaster with 4 samples.

Results

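The H3K9ac clusters described here are the enriched regions that lie on the X chromosome of Drosophila melanogaster, outside the centromere end of its assembled sequence. The assay was ChIP-seq, in which chromatin bound by an antibody is sequenced, on wild-type Oregon-R (Oregon-R-modENCODE) embryos collected at 14 to 16 h, with no treatment named in the labels. A cluster was a member when it stood in the series-wide list of the replicate set, on the X, with a start at or before base 21422827. That base lies 1 Mb before the end of the assembled X of release 5. The rule took in 1946 of the 12322 clusters of the list, or 15.8%. Its sequence makes up 15.3% of the assembled bases, counted over all sequences of the assembly except the one named Uextra. The density of the X beside single autosome arms is given below. The series has 4 samples, namely 2 H3K9ac ChIP samples and 2 inputs. No cluster list of an input was used, and the sources used here do not state whether the inputs entered the ChIP lists. By the same rule the list of ChIP replicate 1 held 1257 X clusters and that of ChIP replicate 2 held 1027. The labels name no sex of the embryos and do not state whether the replicates were separate collections, so differences between them may be technical.

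H3K9ac is the acetyl mark on lysine 9 of the histone H3 tail. In flies and other eukaryotes it is laid down largely by acetyltransferases of the Gcn5 family and is found around the starts of transcribed genes, where it accompanies open chromatin. The fly X is known for dosage compensation, in which the MSL complex coats the X of males and acetylates a different residue, lysine 16 of histone H4. At the age sampled here the embryonic organs are differentiating, so a whole-embryo profile blends many cell types.

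The boundary set by the rule fell within thinly marked sequence. The last members inside it lay at 21384118 to 21385568, 21388976 to 21390444 and 21392664 to 21393714, and scored 0.317, 0.381 and 0.453. The first clusters outside it lay at 21427696 to 21429328, 21433094 to 21435068 and 21437886 to 21439818, and scored 0.381, 0.503 and 0.481. The 1 Mb left out held 61 clusters of the series-wide list, 36 of replicate 1 and 25 of replicate 2. They covered 12.5%, 7.87% and 5.54% of its bases. Coverage was 24.3%, 17.1% and 12.7% inside the boundary, so each of the 3 lists was denser on the side labelled euchromatic. Just inside the boundary, between 21000001 and 21422827, the 3 lists covered 13.3%, 9.57% and 7.44%. Low values also occurred far from it: from 12 to 13 Mb the lists covered 11.8%, 7.98% and 6.63%.

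The score of a cluster, deposited by the authors with no unit, could be placed on a scale from its repeated values. Of the 19 most frequent scores after the first, 17 in the series-wide list differed from the most frequent one by the log2 of a ratio of whole numbers up to 60, within 1e-09. The number was 18 in each replicate list, and 0 when natural or base-10 logarithms were tried. Over all clusters, 6.57% of the series-wide list, 11.3% of replicate 1 and 14.6% of replicate 2 matched in this way with log2. On this basis differences between scores are read as steps on a log2 scale, which was not shown for the other scores. The score that would stand for no enrichment is unknown, and read depth is unknown as well.

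Most H3K9ac clusters of the X spanned a few kb, with a tail of broad domains. In the series-wide list the median width was 2044 bp, the quartiles were 1413 and 3203 bp, and the widths ranged from 1001 to 29279 bp. The medians of the replicates were 2387 bp and 2294 bp. Neither replicate held an X cluster under 1301 bp, while 385 members were narrower than that. Broad domains of 8000 bp or more were few, with 57 members that held 12.4% of the cluster bases. Replicate 1 had 24 X clusters of that width and replicate 2 had 5. Wider members scored higher, with a Spearman coefficient of 0.614 across members, which share their libraries and are not independent.

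Of the 1946 members, 832 were overlapped by a cluster of both replicates, which is 42.8% (95% Wilson interval 40.6 to 45.0%, counting error alone). The share over all clusters of the series-wide list was 43.5%, so the X was close to the background. A further 361 members, or 18.6%, were overlapped by replicate 1 alone, against 20.6% over the whole list. Replicate 2 alone overlapped 81 members, or 4.16%, against 4.27%. The remaining 672 members, or 34.5% (32.5 to 36.7%), were overlapped by neither, against 31.6%. Taken singly, replicate 1 overlapped 61.3% of members and replicate 2 overlapped 46.9%, where the whole list had 64.1% and 47.7%. By bases the picture was different: members found in both replicates held 64.2% of the cluster bases on the X, and those in neither held 18.1%. On the autosome arms 2L, 3L and 3R, cut as described below, the base shares were 63.3% to 65.7% in both. They were 15.5% to 16.0% in neither. The series-wide list belongs to the replicate set itself, so its overlap with the replicates is not independent of them and no test was made.

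The classes differed in width. Among members under 1301 bp, 0 were overlapped by both replicates and 342 of 385 by neither. Between 1301 and 1999 bp the share in both was 8.19%, between 2000 and 3999 bp it was 72.4%, and between 4000 and 7999 bp it was 91.9%. Of the 57 broad domains, 56 were overlapped by both and 0 by neither. The median width was 3315 bp for members in both, 1863 bp in replicate 1 alone, 1675 bp in replicate 2 alone and 1295 bp in neither. The bound of 1301 bp is the width of the narrowest replicate cluster, and overlap counted from 1 bp. Width and overlap class are therefore not independent here.

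**Figure D1:**
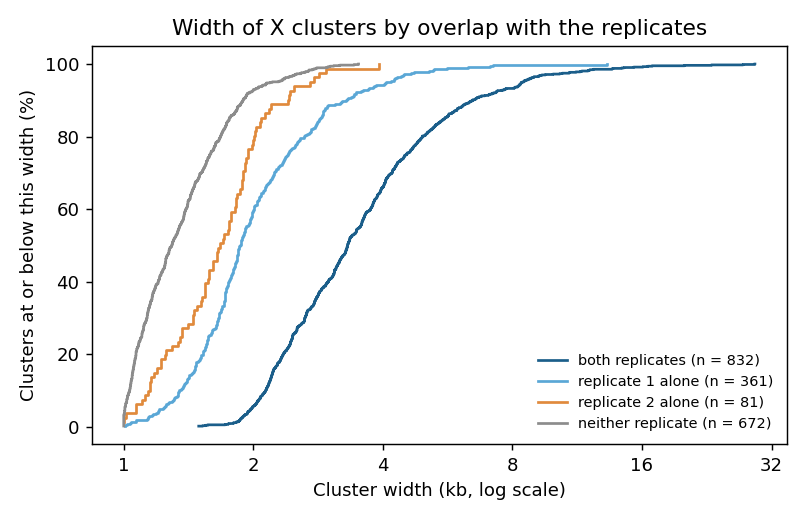
Cumulative share of X clusters of the series-wide list (vertical axis, percent) at or below each width (horizontal axis, kb, log scale), by which replicates overlapped them. The curve for clusters in both replicates, with a median of 3315 bp, lies to the right of the other classes, whose medians are 1295 to 1863 bp. The replicate lists hold no cluster under 1301 bp.

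Overlap with the replicates was far more complete in the upper part of the score range. In each of the lowest 5 deciles of score, between 5.13% and 18.6% of members were overlapped by both replicates. The sixth decile had 32.8% and the seventh 56.2%. In the eighth, scores of 0.680 to 0.901, it was 89.7%. The ninth reached 97.4% and the highest decile 99.5%, or 194 of 195. Taken singly, replicate 1 overlapped 34.5% to 41.8% of members in the lowest 5 deciles, and replicate 2 overlapped 10.3% to 23.7%. The score belongs to the list of the replicate set, so these shares are not independent of it. Widths differed as well, with a median of 1543 bp in the lowest decile and 3799 bp in the highest, and overlap counted from 1 bp.

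**Figure D2:**
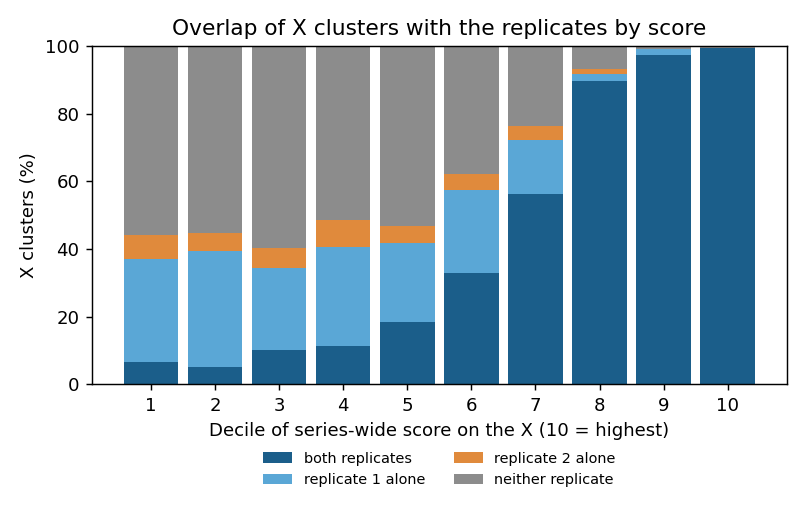
Members of the X by decile of their series-wide score (horizontal axis, decile 10 highest), with the share (percent) overlapped by both replicates, by 1 alone or by neither as stacked bars. The share in both goes from 6.67% in the lowest decile to 99.5% in the highest. The score belongs to the list of the replicate set, so the shares are not independent of it.

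The 10 highest-scoring members were all overlapped by both replicates. The first lay at 20105518 to 20108358 and scored 2.37 series-wide, 2.47 in the list of replicate 1 and 2.42 in that of replicate 2. It ranked 16 in the whole list. The second, at 1371674 to 1378242, spanned 6569 bp and scored 2.22, 2.35 and 2.27 in the same order, with 2 clusters of replicate 2 inside it. The third lay at 15031514 to 15034316 with 2.22, 2.44 and 2.04. In the fourth, at 6187438 to 6191210, replicate 2 had the higher score of the replicates, with 2.52 against 2.29, and the series-wide score was 2.19. The other 6 had series-wide scores of 2.02 to 2.15. They lay at 828410 to 831838, 9445440 to 9451404, 19635752 to 19641860, 699112 to 702160, 19072118 to 19076000 and 4432976 to 4436598. Replicate 1 covered at least 88.8% of each of the 10 and replicate 2 at least 89.8%. Of the 100 members with the highest scores, 99 were overlapped by both replicates and 1 by neither.

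The widest members had lower scores than these, and most of them held more than 1 cluster of a replicate. A domain of 29.3 kb at 473050 to 502328, near the tip of the X, had a score of 0.877. Of its bases, 87.9% lay in 2 clusters of replicate 1 and 58.5% in 4 clusters of replicate 2. Next came 27.5 kb at 20547854 to 20575332, with 99.2% in 2 clusters of replicate 1 and 64.9% in 6 clusters of replicate 2. A domain of 23.2 kb followed at 20590782 to 20613972, with 90.4% and 38.1%, and a 15.3 kb domain adjoined it at 20614002 to 20629304. Replicate 1 thus covered more of each of these domains than replicate 2. The smallest cover by replicate 2 among the 10 widest was 26.2%, in a 20.1 kb domain at 4449440 to 4469526 that replicate 1 covered to 82.0%. A 14.3 kb domain at 9045242 to 9059584 had the highest score of the 10, with 1.27. Replicate 1 covered it to 97.3% and replicate 2 to 91.4%. The other 4 spanned 14.5 to 16.9 kb, at 18189440 to 18206336, 302520 to 319024, 9623256 to 9639352 and 7119640 to 7134170.

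Members that the replicates did not share were mostly weak. The strongest that neither replicate overlapped stood at 196502 to 197608, with a width of 1107 bp and a score of 1.73, rank 40 on the X. The next of that kind scored 0.941, at 20173644 to 20174942, and was followed by 0.928 at 12392092 to 12393114. Their widths were 1299 bp and 1023 bp, under that of the narrowest replicate cluster. The fourth and the fifth lay at 20811410 to 20812574, with 0.840, and at 11483132 to 11484924, with 0.818. Among members with replicate 1 alone, the highest scored 0.994 and lay at 11204 to 13210, the first member of the chromosome. The other 4 lay at 11487314 to 11489190, 11489456 to 11491180, 11634564 to 11638380 and 11647760 to 11650600, and scored 0.775 to 0.955. For replicate 2 alone, the highest was at 11526938 to 11527948 with 0.869, where replicate 2 itself gave 1.32. The others were at 20099498 to 20101114, 1855842 to 1857066, 2532346 to 2533416 and 14367494 to 14369914, and the replicate 2 scores there ran from 1.01 to 1.61.

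List against list, 926 of the 1027 X clusters of replicate 2, or 90.2% (95% Wilson interval 88.2 to 91.8%), overlapped a replicate 1 cluster. Over the whole list of replicate 2 it was 90.5%. In the other direction 871 of 1257 X clusters of replicate 1 did, or 69.3% (66.7 to 71.8%), against 66.8% over its whole list. Clusters with a partner had median widths of 2875 bp in replicate 1 and 2403 bp in replicate 2, and those without had 1635 bp and 1455 bp. The series-wide list left out 4 X clusters of replicate 1 and 16 of replicate 2, and none of these 20 overlapped the other replicate. The 4 of replicate 1 were weak, with scores of 0.494 to 0.671. The 16 of replicate 2 were not: their median score was 1.07, above the 0.946 of the replicate 2 clusters that the list did take in. The strongest stood at 16460710 to 16462117 with 1.76, and another at 1893811 to 1895117 had 1.55.

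Where 1 cluster of each replicate met a member, the edges lay close together. There were 725 such members, with a median width of 3123 bp. The start of the replicate 1 cluster lay a median of 67 bp from that of the member, and its end 56 bp. For replicate 2 both medians were 147 bp. The replicate cluster lay wholly inside the member in 475 cases for replicate 1 and in 595 for replicate 2. More than 1 cluster of replicate 1 fell in 71 members and more than 1 of replicate 2 in 77, with up to 6 in a single member. Across the 832 members in both replicates, the highest overlapping scores correlated with a Spearman coefficient of 0.817. This describes members of the same 2 libraries.

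The gaps between neighbouring members were short for the most part, with a few very long ones. The median gap was 3047 bp, the quartiles were 907 and 8303 bp, and the longest was 183 kb. In replicate 1 the median was 5142 bp and in replicate 2 it was 6522 bp. Gaps of at most 1000 bp numbered 514 of 1945, or 26.4%, and made up 17.4% and 15.9% in the replicates. A single replicate seldom bridged such a short gap: replicate 1 covered 21 of the 514 in full and replicate 2 covered 5. Gaps over 10 kb numbered 418 and took up 55.4% of the chromosome stretch, and the 55 gaps over 50 kb took up 21.8%.

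Members joined by gaps of at most 1000 bp formed 348 runs of 2 or more, which held 862 members, or 44.3%, while 1084 members stood alone. Most runs were pairs, 237 in number. The run with the most members had 7, over 42.0 kb at 9621256 to 9663296, and 95.3% of its bases were covered. Replicate 1 covered 84.2% of it and replicate 2 covered 58.1%. Runs of 6 members numbered 6. The longer ones lay at 580160 to 615426 and at 329798 to 362550, where replicate 1 covered 78.9% and 88.1% and replicate 2 covered 47.6% and 39.6%. The others were at 7060056 to 7083776, 3699034 to 3716316, 11480954 to 11495136 and 18898838 to 18910144, and replicate 2 covered 14.0% to 23.5% of them. The last 3 of the 10 largest runs had 5 members each, at 18178436 to 18211158, 7108266 to 7134170 and 15566408 to 15589156. By length, a run of 3 members at 20583844 to 20629304 was the longest, with 45.5 kb.

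Isolation was described by the distance to the nearest neighbour. Of the 34 with no neighbour within 20 kb, 9 were overlapped by both replicates and 21, or 61.8%, by neither, and their median width was 1365 bp. Members with a neighbour within 1 kb had 42.2% in both and 32.5% in neither. The most isolated member, at 2755220 to 2756468, stood 67.8 kb from the nearest other and was overlapped by neither replicate.

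Cluster-free stretches of 100 kb or more between neighbouring members numbered 15, and they added up to 1952 kb, or 9.11% of the euchromatic X. In 11 of them neither replicate had a covered base, and in the other 4 a replicate cluster reached in from the edge by at most 155 bp. The longest ran from 14184475 to 14367493, with 183 kb. Then came 168 kb at 11049829 to 11218015, 159 kb at 3085075 to 3244555, 149 kb at 6267899 to 6417091 and 139 kb at 12187165 to 12326183. Stretches of 112 to 135 kb lay at 4667015 to 4802491, 12661115 to 12793373, 13309797 to 13434577, 21060847 to 21176525 and 12870355 to 12982509. Of the 10 longest, 3 thus fell between 12 and 13 Mb. Of the 30 members that flanked the 15 stretches, 13 were overlapped by both replicates and 12 by neither. Over all X members the shares were 42.8% in both and 34.5% in neither, so the share in both was close to that of all members. Replicate 1 left 28 stretches of this length on the X and replicate 2 left 39.

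The euchromatic X held 214 complete windows of 100 kb, counted from base 1. The number of member starts in a window ranged from 0 to 27 with a median of 9, and the median coverage was 23.0%. A window without a covered base in the series-wide list was found 6 times, at 3100001 to 3200000, 4700001 to 4800000, 6300001 to 6400000, 11100001 to 11200000, 12200001 to 12300000 and 14200001 to 14300000. Each of these had 0 covered bases in replicate 1 and in replicate 2 as well. Replicate 1 left 13 windows without a covered base and replicate 2 left 19. No window had cover in replicate 2 without cover in replicate 1, and 6 had the reverse. The number of windows without cover depended on the grid, with 2 when the windows were shifted by 50 kb.

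Windows with 15 or more member starts, called dense here, numbered 34 and held 573 members, or 29.4% of all. The most crowded lay at 16000001 to 16100000 with 27 starts. The series-wide list covered 49.6% of it, replicate 1 covered 27.2% and replicate 2 covered 10.4%, and 5 of the 27 members were found in both. After it came 8500001 to 8600000 with 21 starts and coverage of 41.7%, 21.6% and 10.1% in the same order. Windows at 4300001 to 4400000 and 17200001 to 17300000 had 20 starts each, with 52.2%, 25.5% and 15.5% in the first and 40.4%, 23.3% and 8.34% in the second. The next held 19 starts at 20900001 to 21000000, with 33.1%, 19.1% and 12.8%. In these 5 windows replicate 2 covered less than replicate 1 throughout. The other 5 of the 10 most crowded windows had 17 or 18 starts, at 19300001, 2100001, 17700001, 2200001 and 4400001, where replicate 1 covered 27.5% to 40.7% and replicate 2 covered 11.5% to 26.4%.

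Crowded windows were also more covered. The median series-wide coverage was 40.9% in dense windows, 22.7% with 4 to 14 starts and 2.94% with 0 to 3. At the top the rankings differed in part: of the 10 most crowded and the 10 most covered windows, 2 were the same. The most covered window lay at 20500001 to 20600000 with 15 starts, where the series-wide list covered 78.4%, replicate 1 covered 60.2% and replicate 2 covered 35.5%. It takes in the whole of the 27.5 kb domain and the first part of the 23.2 kb domain named above. Near the tip, windows at 300001 to 400000 and 500001 to 600000 were covered to 62.9% and 63.3%. At 19500001 to 19600000 the replicates were alike, with 46.6% and 46.8%, and 13 of its 14 members were found in both.

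Overlap with the replicates was also counted by crowding. Of the 573 members in dense windows, 195 were in both replicates, or 34.0%, and 230 in neither, or 40.1%. In the 152 windows with 4 to 14 starts, 620 of 1336 members were in both, or 46.4%, and 429 in neither, or 32.1%. The median width of members was 1939 bp in dense windows and 2082 bp in the middle group. The difference of 12.4 percentage points between the shares in both was chosen for report after it was seen. Members are not replicates, so it was not tested. The count that makes a window dense includes members in neither replicate, so the grouping is not independent of these shares. Counted with members in both replicates alone, 0 windows were dense. With the grid shifted by 50 kb the shares differed by -14.5 points, and by -13.2 for members of 1301 bp or more.

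Across windows the replicates ranked the X alike. Their coverage correlated with a Spearman coefficient of 0.932 over the 214 windows, which are neighbours of the same 2 libraries. Replicate 1 covered more in 180 windows and replicate 2 in 21, while 13 had no cover in either. The median difference was 3.04 percentage points. The largest was 27.0 points at 300001 to 400000, where replicate 1 covered 57.8% and replicate 2 covered 30.8%. The window at 17600001 to 17700000 went furthest the other way, with 10.5% in replicate 1 and 15.2% in replicate 2.

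**Figure D3:**
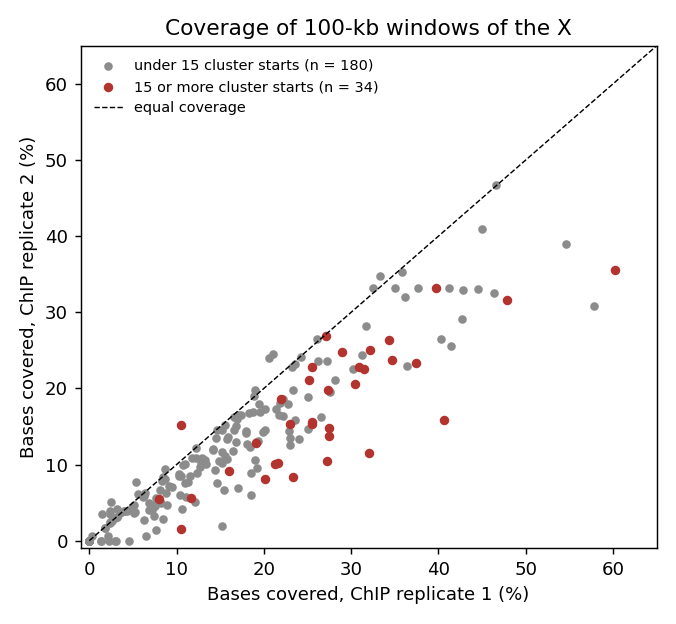
Each point is a 100-kb window of the euchromatic X, with the percent of its bases covered by clusters of ChIP replicate 1 (horizontal axis) and replicate 2 (vertical axis). Red points are the 34 windows with 15 or more cluster starts in the series-wide list, and the dashed line marks equal coverage. Of the 214 windows, 180 lie below the line.

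Over complete bins of 1 Mb, the tip of the X was covered most. The first bin, from base 1 to 1000000, had 29.9% in replicate 1 and 19.8% in replicate 2, and the second had 24.2% and 19.1%. Between 15 and 16 Mb it was 21.8% and 17.4%. The bin from 12 to 13 Mb was the least covered in replicate 1, with 7.98%, and had 6.63% in replicate 2 and 47 member starts, against 133 in the second bin. The lowest coverage in replicate 2 was 5.90%, from 14 to 15 Mb, where replicate 1 had 9.38%. From 3 to 4 Mb it was 9.66% and 7.63%. Replicate 1 was higher in 21 of 21 bins, by a ratio of 1.15 to 1.63. The share of members in both replicates went from 29.4% between 14 and 15 Mb to 57.8% between 15 and 16 Mb, so that neighbouring bins held the extremes. The bins from 6 to 7 Mb and from 11 to 12 Mb had the highest median scores in replicate 1. Their median replicate scores were 1.16 and 1.02 in replicate 1 and 1.27 and 1.14 in replicate 2, where the whole euchromatic X had 0.762 and 0.950. The bin from 19 to 20 Mb had 1.15 in replicate 2 and 0.775 in replicate 1.

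The X was set beside 3 autosome arms of similar size, and its clusters per Mb and its coverage were the lowest of the 4 in each list. The arms were 2L and 3L without their last 1 Mb and the whole of 3R. The X held 53.3 ± 7.59 clusters per Mb (mean ± SD, n = 2 replicates), against 61.9 ± 11.4 on 2L, 66.2 ± 12.5 on 3L and 66.4 ± 10.2 on 3R. The differences are of the same order as the SD between replicates, while within each replicate the X had the lowest value. The ratio of X to arm density was 0.782 to 0.838 in replicate 1 and 0.810 to 0.890 in replicate 2. The ratio of mean widths was closer to 1, with 0.985 to 1.02 in replicate 1 and 1.01 to 1.07 in replicate 2. In the series-wide list it was below 1 against each arm, with 0.957 to 0.980, where the ratio of densities was 0.847 to 0.885. Coverage of the X was 14.9% ± 3.09, against 17.3% ± 4.85, 17.8% ± 5.02 and 18.6% ± 4.43 on 2L, 3L and 3R. With 2 replicates the exact permutation test on these values cannot reach a p under 0.05, so no test is given.

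Among these 4 arms the X also had the largest share of its length in long gaps, within each of the 3 lists. In the series-wide list it had the largest share of empty windows as well. Gaps over 50 kb took up 38.9% of the X in replicate 1 and 45.3% in replicate 2. On the 3 arms it was 24.97% to 28.4% and 33.9% to 39.6%, and the series-wide list had 21.8% on the X and 12.1% to 14.3% on the arms. Windows without a covered base in the series-wide list made up 2.80% of the X windows, against 0.909% on 2L, 0.851% on 3L and 0.717% on 3R. That X count of 6 windows fell to 2 on the grid shifted by 50 kb, for which no count on the arms is given. In the replicates the shares were 6.07% on the X against 2.98% to 5.91% in replicate 1. They were 8.88% against 4.68% to 8.64% in replicate 2. The X and 2L had the same number of empty windows there, 13 each in replicate 1 and 19 each in replicate 2. Their shares differ because the X has 214 windows and 2L has 220. Dense windows made up 15.9% on the X, 20% on 2L, 24.7% on 3L and 21.5% on 3R.

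**Figure D4:**
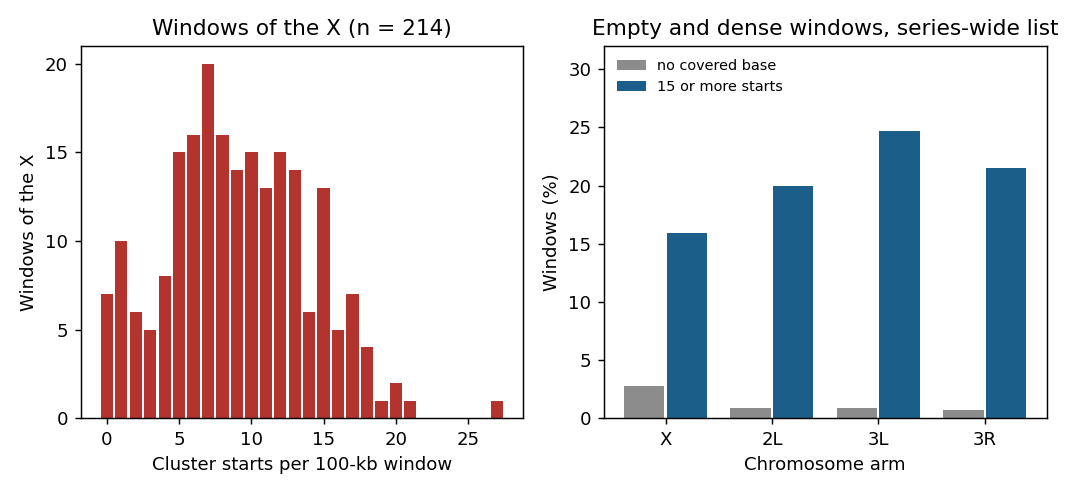
Left, the number of 100-kb windows of the euchromatic X (vertical axis) by the number of series-wide cluster starts they hold (horizontal axis). Right, the percent of windows on each arm with no covered base (grey) and with 15 or more starts (blue), where the X has 2.80% and 15.9%.

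The median score on the X lay above that of the 3 arms in each overlap class and in each replicate list. No test was made, because clusters of a library are not replicates. Among series-wide clusters in both replicates, the median score was 0.842 on the X, against 0.692 on 2L, 0.693 on 3L and 0.739 on 3R. Among those in neither it was 0.461, against 0.401, 0.401 and 0.398. In replicate 1 alone the medians were 0.466 on the X and 0.395 to 0.399 on the arms, and in replicate 2 alone 0.474 and 0.387 to 0.405. Median widths lay closer together. For clusters in both the median was 3315 bp on the X and 3273 to 3293 bp on the arms, and for those in neither it was 1295 bp and 1238 to 1259 bp. The X also had the widest median of the 4 arms in the replicate lists. It was 2387 bp against 2231 to 2309.5 bp in replicate 1 and 2294 bp against 2118 to 2202.5 bp in replicate 2. This did not hold for clusters in 1 replicate alone, nor for the whole series-wide list, with 2044 bp against 2001 to 2083 bp. In the replicate lists, the median X score exceeded that of the arms by 0.104 to 0.126 in replicate 1 and by 0.156 to 0.188 in replicate 2. The shift was present at the low end too. There the 10th percentile on the X exceeded that of the arms by 0.0811 to 0.0975 in replicate 1 and by 0.0981 to 0.120 in replicate 2. It did not extend to the maximum, which was lowest on the X in each list. The maximum was 2.37 on the X against 2.74 to 2.87 on the arms in the series-wide list. It was 2.47 against 2.93 to 3.06 in replicate 1 and 2.52 against 2.66 to 2.88 in replicate 2.

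The step between the replicates was set beside the arms as well. Over the 832 members in both, the replicate 2 score exceeded that of replicate 1 by a median of 0.0418, and it was the higher in 486, or 58.4%. The median difference was 0.0081 on 2L, 0.00079 on 3L and 0.0050 on 3R, with replicate 2 higher in 50.2% to 52.0% of clusters. The SD over X members was 0.209, far above these medians. This difference was not tested either.

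**Figure D5:**
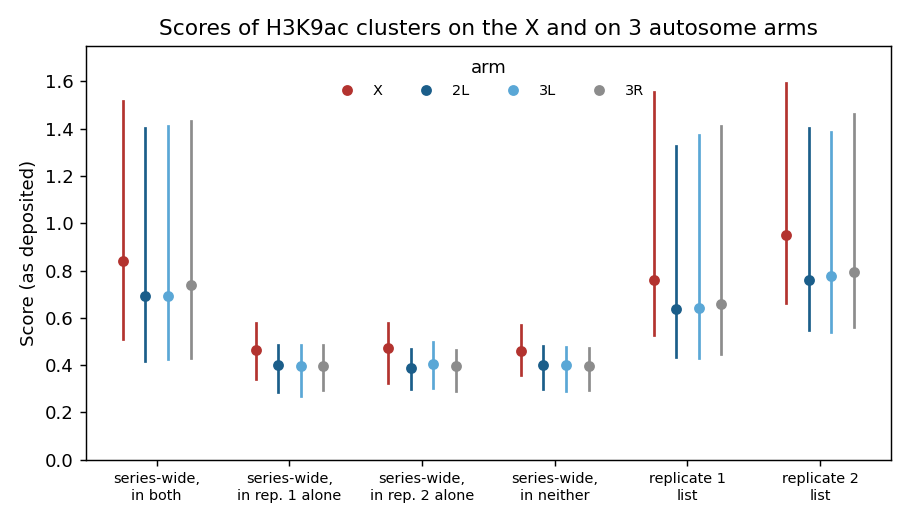
Median score (points) and the range from the 10th to the 90th percentile (lines) of H3K9ac clusters on the X (red) and on 2L, 3L and 3R, for the 4 overlap classes of the series-wide list and for each replicate list. The score is as deposited, and its differences are read as steps on a log2 scale. The X median is the highest of the 4 arms in each of the 6 groups.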

How the data were processed

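The files used are 3 lists of enriched regions, with coordinates on FlyBase release 5 and counted from 1, per the file headers. Each region has a score deposited by the authors. For the aligner, the caller, its threshold and the way the replicate set was combined, nothing is given in the sources used here. All starts and ends of the series-wide list are even numbers and its narrowest cluster has 1001 bp. The replicate lists have odd and even ends, and a minimum width of 1301 bp over both lists. Read depth is unknown, so intervals cover counting error alone.

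Clusters counted as overlapping from 1 bp. Coverage was computed after merging. Gaps are the bases between neighbours, windows are 100 kb from base 1, and a start assigns a cluster to its window. Regions were named by fixed ranks of score, width, run size, gap length and window count. Members, lists and ranks were chosen with earlier results of these data known. Regions are named by position, since the gene names used in this work are tied to Release 6 and positions were not carried between releases. Mappability was not modelled. The overlap, gap and coverage code was tested on simulated data. The tools were scipy 1.17.1, pandas 2.3.3 and numpy 2.4.6 under Python 3.11.15, with figures from matplotlib 3.10.9.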

Additional observations from a re-analysis of the deposited data

How the results depend on the processing

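Of 31 settings, 11 left a result within its interval, its SD between replicates or 1.5 times its count, and 20 moved it. None reversed the sign of the score or share differences. The share of X members in both replicates, 42.8%, moved to 37.9% with 50% of the cluster covered, 28.5% with the stronger replicate clusters (from the median score of their list upwards), 58.3% for members at or above the median score and 53.3% for members of 1301 bp or more. The share in neither, 34.5%, moved to 36.7% when under 50% covered by either counted as neither, to 24.7% for members at or above the median score and to 21.1% for those of 1301 bp or more. Coverage of the X over the replicates, 14.9%, was 11.7% with the stronger replicate clusters and ranged from 12.7% to 17.1% without either replicate. The median width became 2341 bp with gaps under 500 bp joined and 2526 bp at or above the median score. The median gap became 4440 bp with joining and 7817 bp for members in both replicates. The 6 empty windows became 2 on a grid shifted by 50 kb, 21 for members in both replicates, 13 in replicate 1 and 19 in replicate 2. The 34 dense windows became 0 for members in both replicates, which leaves fewer clusters. With 50% of the cluster covered, 64.0% of replicate 1 X clusters met replicate 2. The excess of the median X score over 2L, 3L and 3R pooled, 0.080 in the series-wide list, was 0.172 in replicate 2 and 0.129 for clusters in both replicates, settings chosen after seeing the data, as were the 13.2 and 14.5 point differences for dense windows. Apart from fewer clusters or other cluster sets, the cause was not tested. No paired analysis was possible because ChIP and input samples, which share replicate numbers, could not be compared: no cluster list of an input was analysed here. The X and the arms were compared within each replicate list by ratios, with no test. As read depth is unknown, its limits on these values were not measured.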
